A study of Mus musculus with 6 samples.

Results

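Astrocytes keep the space around synapses and vessels in balance by taking up transmitters, potassium and water and by passing solutes among themselves. Described here are 8 genes of that work, Slc1a2, Slc1a3, Glul, Slc6a11, Kcnj10, Aqp4, Gja1 and Gjb6, in 6 single-nucleus RNA libraries of mouse brain. They were taken by name, as listed genes of glutamate, GABA, potassium and water transport and of gap junctions. The rule uses no measured value, but the list was drawn up with earlier results of these data known. Each is 1 row of all 6 matrices, so they are 8 of 33457 features.

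Glutamate released at synapses is carried into astrocytes by the sodium-driven transporters encoded by Slc1a2 and Slc1a3, and the enzyme glutamine synthetase, encoded by Glul, turns it into glutamine that returns to neurons. Slc6a11 encodes a GABA transporter of astrocyte processes. Kcnj10 encodes an inwardly rectifying potassium channel that takes up potassium after firing, Aqp4 encodes the water channel of the endfeet that wrap vessels, and Gja1 and Gjb6 encode the connexins of the gap junctions that join astrocytes into a network.

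All mice were of strain B6, were 9 months old and carried human APOE alleles flanked by loxP sites. TAFE4_tam and TAFE3_tam came from mice with P301S, a tau transgene that models tauopathy, and a Cre spelled Aldh1la1CreERT in the labels, with APOE4 fl/fl or APOE3 fl/fl, given tamoxifen, which activates such a Cre. TAFE4_oil and TAFE3_oil had the same genotypes and were given oil. FE4 and FE3 were APOE4 fl/fl and APOE3 fl/fl mice with no treatment, and neither tau nor Cre is named for them. Each group was 1 library, and no label says how many animals stand behind it. No between-animal error could therefore be had: every interval below is a 95% interval for counting error only, no p-value is given, and a difference between groups cannot be told apart from a difference between libraries. Tau libraries also differ from FE libraries by Cre and oil at the same time, and tamoxifen comes together with loss of APOE. Titles name hippocampus and the protocol names the left hemisphere.

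The matrices held 96252 barcodes and 39050503 to 49083723 unique molecular identifiers (UMIs, the counted molecules) per library. After filters, 68099 nuclei in 28 clusters were used, of which 2617 in 1 cluster were astrocytes by 17 marker genes that include none of the 8. Those markers summed to between 5192 and 8218 counts per 1000000 UMIs (CPM) in astrocytes by library, against 171 to 526 CPM in neuron classes. Astrocytes numbered 238 in TAFE4_tam, 339 in TAFE3_tam, 271 in TAFE4_oil, 321 in TAFE3_oil, 938 in FE4 and 510 in FE3, with a median of 1480.5 to 1903 UMIs per nucleus. Libraries differed in their median mitochondrial share per barcode, which was 0.695% in TAFE4_tam, 2.81% in TAFE3_tam, 2.35% in TAFE4_oil, 2.01% in TAFE3_oil, 0.625% in FE4 and 3.23% in FE3. Any pair of libraries shared 65 to 83 barcodes. The mix of neurons also differed. Granule neurons were 12.3% of nuclei in TAFE4_tam, 11.5% in TAFE3_tam, 5.28% in TAFE4_oil, 7.09% in TAFE3_oil, 23.3% in FE4 and 24.2% in FE3. A cluster of subicular or cortical neurons with Rorb and Cux2 among its leading genes held 1037, 682, 2906, 1827, 49 and 82 nuclei in that order. The part of this mix in the astrocyte values was not tested. Human APOE, the floxed gene, was lower in both tamoxifen libraries, as their labels have it: its level in astrocytes was 5207 CPM in TAFE4_tam and 5162 CPM in TAFE3_tam, against 19418 CPM in TAFE4_oil, 16270 CPM in TAFE3_oil, 13090 CPM in FE4 and 12775 CPM in FE3.

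Levels are CPM within a class of nuclei in 1 library, and differences are log2 ratios of CPM. A gene was called higher or lower when the log2 ratio was at least 0.5 in size and both libraries together held at least 100 of its UMIs. That is a rule of size, not a test. All 8 genes reached 100 UMIs in every astrocyte comparison. The CPM of different genes are not compared with each other, since CPM are not scaled by gene length.

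Slc1a2, the main glutamate transporter of forebrain astrocytes, lies on mouse chromosome 2 at 102658659 to 102790784, plus strand (GRCm38, GENCODE vM21). Its level in astrocytes was 7900 CPM in TAFE4_tam, 7721 CPM in TAFE3_tam, 7539 CPM in TAFE4_oil, 6741 CPM in TAFE3_oil, 4866 CPM in FE4 and 5212 CPM in FE3. All 4 tau libraries lay above both FE libraries, and FE4 was lowest. A counted antisense gene, Gm13872, overlaps Slc1a2, but it held 94 astrocyte UMIs beside 33682 of Slc1a2. Slc1a3, the second glial glutamate transporter, is on chromosome 15 at 8634124 to 8710764, minus strand. Its level was 2577 CPM in TAFE4_tam, 2136 CPM in TAFE3_tam, 1875 CPM in TAFE4_oil, 1769 CPM in TAFE3_oil, 2076 CPM in FE4 and 2342 CPM in FE3. Here the oil libraries were lowest and TAFE4_tam was highest, so the order of libraries was not that of Slc1a2. Glul, on chromosome 1 at 153899944 to 153909723, plus strand, had 727 CPM in TAFE4_tam, 783 CPM in TAFE3_tam, 872 CPM in TAFE4_oil, 709 CPM in TAFE3_oil, 644 CPM in FE4 and 712 CPM in FE3. TAFE4_oil was highest and FE4 lowest, while TAFE4_tam, TAFE3_oil and FE3 had intervals that overlapped.

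Slc6a11, the GABA transporter, is on chromosome 6 at 114131241 to 114249952, plus strand. It had 267 CPM in TAFE4_tam, 325 CPM in TAFE3_tam, 300.2 CPM in TAFE4_oil, 199 CPM in TAFE3_oil, 186 CPM in FE4 and 246 CPM in FE3. TAFE3_oil lay with the FE libraries rather than with the other tau libraries. A list of 5 genes of astrocytes outside the telencephalon summed to 648 CPM in TAFE4_tam, 773 CPM in TAFE3_tam, 632 CPM in TAFE4_oil, 505 CPM in TAFE3_oil, 305 CPM in FE4 and 343 CPM in FE3. All 4 tau libraries lay above both FE libraries on that list. A list of 4 genes of telencephalic astrocytes did not have that order. It summed to 1428 CPM in TAFE4_tam, 1464 CPM in TAFE3_tam, 1345 CPM in TAFE4_oil and 1084 CPM in TAFE3_oil. The sum was 1258 CPM in FE4 and 1509 CPM in FE3. The part of either list in the Slc6a11 values was not tested.

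Kcnj10, the potassium channel, is on chromosome 1 at 172341210 to 172374085, plus strand, and was thinly counted. It had 53 UMIs or 112 CPM (interval 84.1 to 147) in TAFE4_tam, 82 UMIs or 118 CPM (93.7 to 146) in TAFE3_tam, 75 UMIs or 117 CPM (92.2 to 147) in TAFE4_oil, 94 UMIs or 121 CPM (97.4 to 148) in TAFE3_oil, 87 UMIs or 42.8 CPM (34.3 to 52.8) in FE4 and 42 UMIs or 47.5 CPM (34.2 to 64.2) in FE3. The 4 tau libraries lay within each other's intervals, as did the 2 FE libraries, and no interval of a tau library reached one of an FE library. Aqp4, the water channel, on chromosome 18, had 557 CPM in TAFE4_tam, 580 CPM in TAFE3_tam, 683 CPM in TAFE4_oil, 648 CPM in TAFE3_oil, 464 CPM in FE4 and 401 CPM in FE3. The 4 tau libraries lay above both FE libraries, although the interval of TAFE4_tam, 492 to 629 CPM, came close to that of FE4, 435 to 495 CPM, and overlapped it.

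Gja1, the most widely expressed astrocyte connexin gene, is on chromosome 10 at 56377330 to 56402513, plus strand. It had 735 CPM in TAFE4_tam, 766 CPM in TAFE3_tam, 671 CPM in TAFE4_oil, 631 CPM in TAFE3_oil, 573 CPM in FE4 and 609 CPM in FE3. Its partner Gjb6, on chromosome 14 at 57123303 to 57133611, minus strand, had 227 CPM in TAFE4_tam, 207 CPM in TAFE3_tam, 158 CPM in TAFE4_oil, 208 CPM in TAFE3_oil, 149 CPM in FE4 and 175 CPM in FE3. Gja1 was highest in the tamoxifen libraries. The Gjb6 intervals of TAFE4_tam, TAFE3_tam and TAFE3_oil lay above that of FE4, and those of all other pairs overlapped. The plot of levels by library shows all 8 genes with their intervals.

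**Figure D1:**
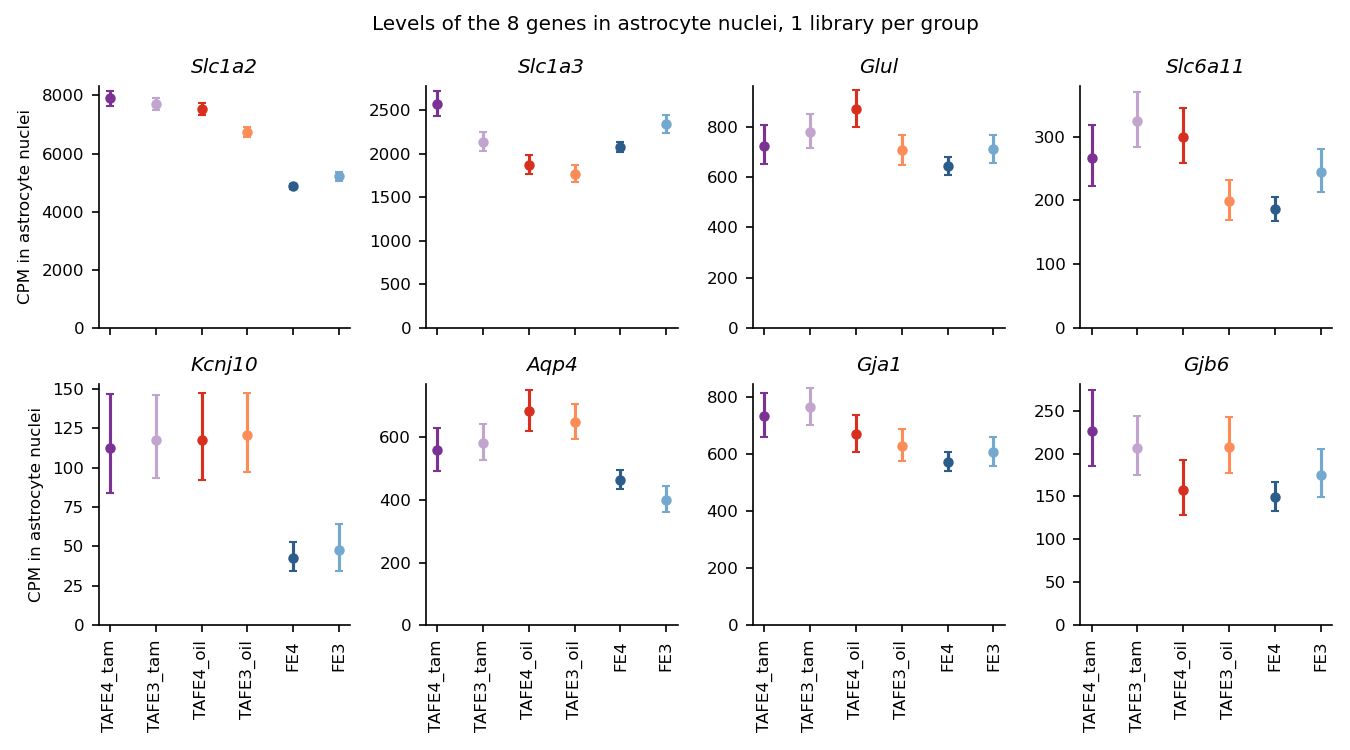
Level of each of the 8 genes in astrocyte nuclei, in CPM on a linear axis from 0, by library; points are the value of 1 library and bars its 95% counting interval. Kcnj10 sits between 112 and 121 CPM in the 4 tau libraries, against 42.8 CPM in FE4 and 47.5 CPM in FE3, and Slc1a2 is also higher in each tau library than in both FE libraries.

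Sequence upstream of the start is shown for Kcnj10, the gene that stood furthest apart between tau and FE libraries, and for the 2 genes with a motif match, Slc1a3 and Gja1. RefSeq promoters of GRCm38.p6, each 250 bases before to 50 bases after a start, matched 7 of the 8 genes. Motifs linked to astrocyte identity or reactive states were searched on both strands: the nuclear factor I motif TTGGCA, the STAT motif TTCNNNGAA, the SOX motif AACAAT and the AP-1 motif TGANTCA, and no match overlapped one of another motif. Of 32851 promoters of 300 bases, 14.1% hold the first, 8.30% the STAT, 10.7% the SOX and 7.81% the AP-1 motif. Kcnj10 (chr1:172340960-172341209, plus strand) held none of them. Slc1a3 (chr15:8710808-8711057, minus strand) held STAT at base 155, and Gja1 (chr10:56377050-56377299, plus strand) held AP-1 at base 232, counted from the first base printed. Capitals mark those matches.
Kcnj10: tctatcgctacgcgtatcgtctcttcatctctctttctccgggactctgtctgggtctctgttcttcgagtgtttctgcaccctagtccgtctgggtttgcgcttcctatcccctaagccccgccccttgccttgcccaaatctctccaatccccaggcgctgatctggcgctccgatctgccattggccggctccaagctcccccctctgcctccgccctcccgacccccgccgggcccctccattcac
Slc1a3: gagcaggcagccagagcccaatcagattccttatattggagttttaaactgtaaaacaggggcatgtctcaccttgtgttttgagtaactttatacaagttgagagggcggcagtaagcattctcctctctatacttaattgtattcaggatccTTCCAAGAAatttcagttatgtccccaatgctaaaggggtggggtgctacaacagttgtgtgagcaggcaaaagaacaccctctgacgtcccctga
Gja1: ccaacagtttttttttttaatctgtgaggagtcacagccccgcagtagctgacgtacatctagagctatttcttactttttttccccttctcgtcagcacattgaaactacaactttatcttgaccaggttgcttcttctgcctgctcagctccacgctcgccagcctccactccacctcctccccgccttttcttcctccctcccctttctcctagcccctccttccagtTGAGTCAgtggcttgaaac
The whole window of 300 bases was 63.7% GC for Kcnj10, 45.3% GC for Slc1a3 and 47.7% GC for Gja1, where the median over all promoters was 52.7% GC. A match describes letters only.

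Tau libraries given oil were set against untreated libraries of the same APOE allele, the comparison that carries P301S, Cre and oil together. Those libraries also differed in their mix of neurons, as given above. In TAFE4_oil against FE4, 4 of the 8 genes were called higher and 0 lower, where 25.8% of the 4413 genes tested were called higher and 11.0% lower. In TAFE3_oil against FE3, 2 of the 8 were called higher and 0 lower, where 13.7% of 2694 genes were called higher and 11.2% lower. The median log2 ratio of the 8 was 0.50 in TAFE4_oil against FE4 beside 0.13 over all genes tested, and 0.15 in TAFE3_oil against FE3 beside -0.01. Neither median was steady under other processing: the first ranged from 0.15 to 0.76 and was 0.24 with TMM factors, and the second ranged from -0.10 to 0.36. The lowest value of the second came with each library's own doublet threshold, under which 1 gene was past the fold higher and 2 lower in TAFE3_oil against FE3.

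Kcnj10 and Aqp4, the potassium and water channels, were the genes called in both. Kcnj10 had 117 CPM in TAFE4_oil against 42.8 CPM in FE4, a log2 ratio of 1.45 (0.99 to 1.92). It had 121 CPM in TAFE3_oil against 47.5 CPM in FE3, a log2 ratio of 1.34 (0.80 to 1.90). This was the highest ratio among the 8 in both comparisons. Aqp4 was higher by 0.56 (0.39 to 0.72) in TAFE4_oil against FE4 and by 0.69 (0.49 to 0.89) in TAFE3_oil against FE3. Of the glutamate genes, Slc1a2 was called higher in TAFE4_oil against FE4, with a log2 ratio of 0.63 (0.58 to 0.68), and stayed short of the fold in TAFE3_oil against FE3, at 0.37 (0.31 to 0.43). Slc1a3 had negative ratios short of the fold, -0.15 (-0.24 to -0.05) in TAFE4_oil against FE4 and -0.41 (-0.50 to -0.31) in TAFE3_oil against FE3. Both transporters take up glutamate. The sign of the Slc1a3 ratio in TAFE4_oil against FE4 depended on processing, with a range of -0.45 to 0.04 and the positive end under each library's own doublet threshold. Glul was at 0.44 (0.29 to 0.58) in TAFE4_oil against FE4 and at -0.00 (-0.17 to 0.16) in TAFE3_oil against FE3. Slc6a11 was called higher in TAFE4_oil against FE4, at 0.69 (0.43 to 0.94), and had -0.30 (-0.61 to -0.00) in TAFE3_oil against FE3. The connexin genes were not called: Gja1 had 0.23 (0.06 to 0.39) in TAFE4_oil against FE4 and 0.05 (-0.13 to 0.23) in TAFE3_oil against FE3. Gjb6 had 0.08 (-0.26 to 0.41) in TAFE4_oil against FE4 and 0.24 (-0.08 to 0.57) in TAFE3_oil against FE3.

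Of these genes, only Kcnj10 stayed past the fold under all 13 alternatives that gave values, with log2 ratios of 1.20 to 1.82 in TAFE4_oil against FE4 and 0.72 to 1.47 in TAFE3_oil against FE3. In the largest astrocyte subcluster it did so from under 100 UMIs. The calls of Aqp4, Slc1a2 and Slc6a11 each ended under at least 2 of them, among which the largest astrocyte subcluster alone ended every one. In the astrocytes of TAFE4_oil against FE4, neuronal transcripts of 8 genes summed to 5972 CPM against 8296 CPM. In TAFE3_oil against FE3 they summed to 5854 CPM against 5648 CPM. Oligodendrocyte transcripts of 5 genes summed to 1431 CPM in TAFE4_oil, 896 CPM in FE4, 1694 CPM in TAFE3_oil and 1172 CPM in FE3. Microglial transcripts of 5 genes summed to 492, 125, 434 and 175 CPM in the same order. With astrocyte nuclei limited to at most 1% neuronal transcripts, 4 of the 8 genes were past the fold higher in TAFE4_oil against FE4. In TAFE3_oil against FE3, 2 were. Beyond that limit, the part of these transcripts in the ratios was not tested. Among the 15 listed reactive genes, such as Gfap and Vim, the sum was 2838 CPM in TAFE4_oil against 819 CPM in FE4 and 3730 CPM in TAFE3_oil against 793 CPM in FE3.

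**Figure D2:**
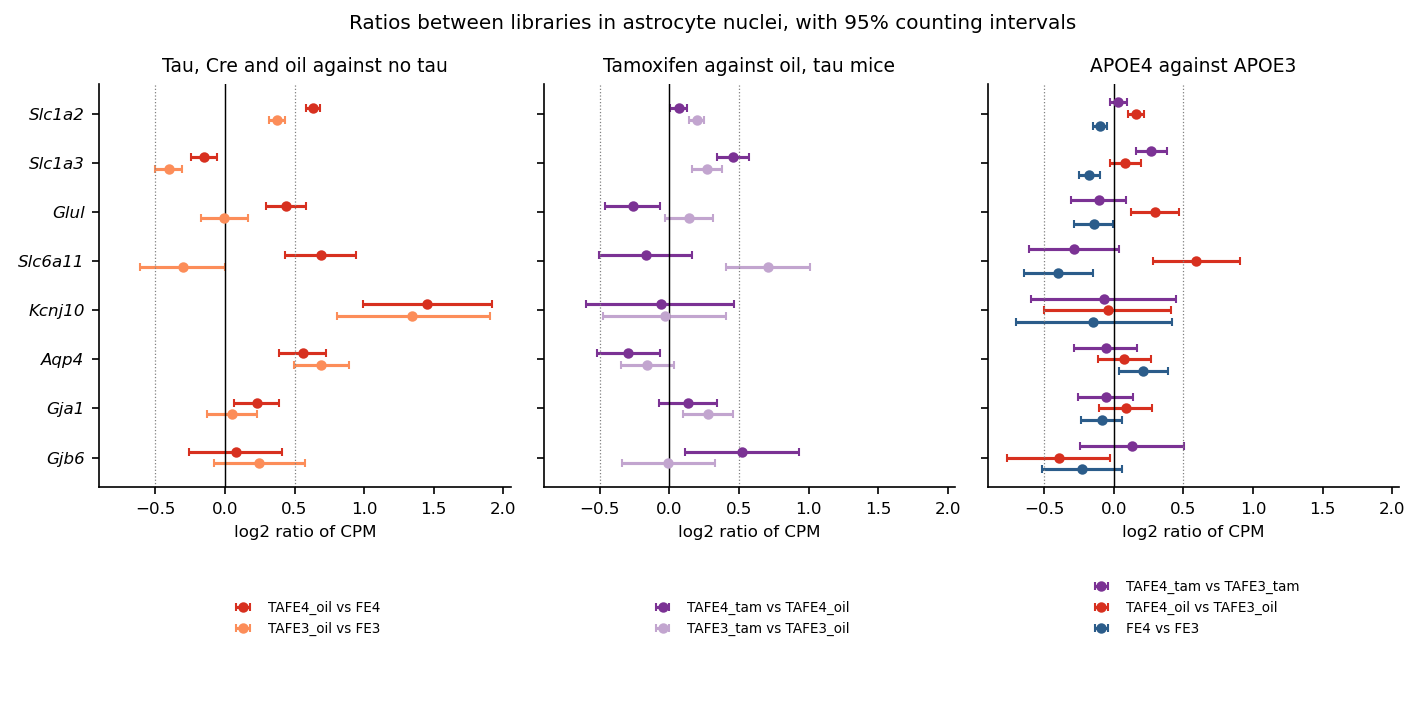
Log2 ratio of CPM between libraries in astrocyte nuclei for the 8 genes, with the tau, tamoxifen and APOE comparisons in separate panels; points are ratios, bars are 95% counting intervals and dotted lines mark 0.5 in size. Kcnj10, at 1.45 and 1.34, and Aqp4, at 0.56 and 0.69, lie past the line in both tau comparisons.

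Shares of nuclei with a UMI were read after each nucleus was thinned to 1000 UMIs. For Kcnj10 the share of astrocytes was 9.38% in TAFE4_tam, 9.57% in TAFE3_tam, 9.63% in TAFE4_oil, 11.3% in TAFE3_oil, 3.41% in FE4 and 3.06% in FE3. In granule neurons, which serve as the level of free RNA, the same share was 0.332% to 1.43% by library, at a median of 2092 to 2678 UMIs. Without thinning, the astrocyte shares were 16.4% in TAFE4_tam, 15.9% in TAFE3_tam, 20.3% in TAFE4_oil, 19.9% in TAFE3_oil, 6.82% in FE4 and 7.45% in FE3. Kcnj10 was thus found in more astrocyte nuclei of each tau library at equal depth. For Aqp4 the thinned share was 29.0% in TAFE4_tam, 32.7% in TAFE3_tam, 32.2% in TAFE4_oil, 35.3% in TAFE3_oil, 25.9% in FE4 and 26.7% in FE3, against 1.12% to 1.95% in granule neurons; unthinned it was 42.9%, 46.9%, 49.4%, 52.3%, 38.1% and 35.7% in the same order of libraries. Intervals of the Aqp4 shares in all 4 tau libraries overlapped that of FE3, and all but that of TAFE3_oil overlapped that of FE4. Thinning left out 1 to 88 astrocytes per library, most in FE4.

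The astrocytes were then clustered again without the 8 genes, to see where within the class they were high. Subcluster 1 held 1820 nuclei led by Etnppl and Slc7a10, and subcluster 2 held 511 nuclei led by Myoc, Cxcl10, Vim and Gfap. Reactive genes summed to 4874 CPM in subcluster 2 against 961 CPM in subcluster 1. Small subclusters of 216, 46 and 24 nuclei were led by neuronal, oligodendrocyte precursor and other genes. Subcluster 2 made up 31.5% of astrocytes in TAFE4_tam, 37.8% in TAFE3_tam, 35.8% in TAFE4_oil, 36.8% in TAFE3_oil, 5.01% in FE4 and 9.02% in FE3.

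Slc1a2, Glul, Kcnj10, Aqp4 and Gja1 had a higher level in subcluster 2 than in subcluster 1 in each of the 4 tau libraries and when pooled. Pooled values mix subcluster with library. FE4 and FE3 gave 737 and 434 of the 1820 nuclei in subcluster 1, but 47 and 46 of the 511 in subcluster 2. Pooled, Aqp4 had 1099 CPM in subcluster 2 against 332 CPM in subcluster 1, and Kcnj10 had 165 CPM against 56.8 CPM. Slc1a2 had 10036 CPM in subcluster 2 against 5459 CPM in subcluster 1, Glul 1076 CPM against 677 CPM and Gja1 884 CPM against 650.0 CPM. Among the tau libraries the gaps of Glul and Gja1 were smallest in TAFE4_tam. There Glul had 808 CPM against 766 CPM and Gja1 had 802 CPM against 745 CPM. Slc6a11 had 295 CPM in subcluster 2 against 251 CPM in subcluster 1 when pooled, but within libraries it was higher in TAFE3_tam and TAFE4_oil and lower in TAFE4_tam and TAFE3_oil. Gjb6 had 194 CPM in both when pooled. Slc1a3 was lower there in each of the 4 tau libraries and when pooled, with 2054 CPM in subcluster 2 against 2504 CPM in subcluster 1. Its gap ran from 2703 CPM against 2726 CPM in TAFE4_tam, nearly level, to 1762 CPM against 2246 CPM in TAFE3_oil. No interval was set on these levels. These are levels of clusters made from the same nuclei, given as a description. In each of the 4 tau libraries, which alone had 50 nuclei in both subclusters, Aqp4 lay between 889 and 980 CPM in subcluster 2 and between 321 and 399 CPM in subcluster 1. Kcnj10 lay between 139 and 194 CPM in subcluster 2 and between 69.3 and 95.7 CPM in subcluster 1 of those libraries.

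**Figure D3:**
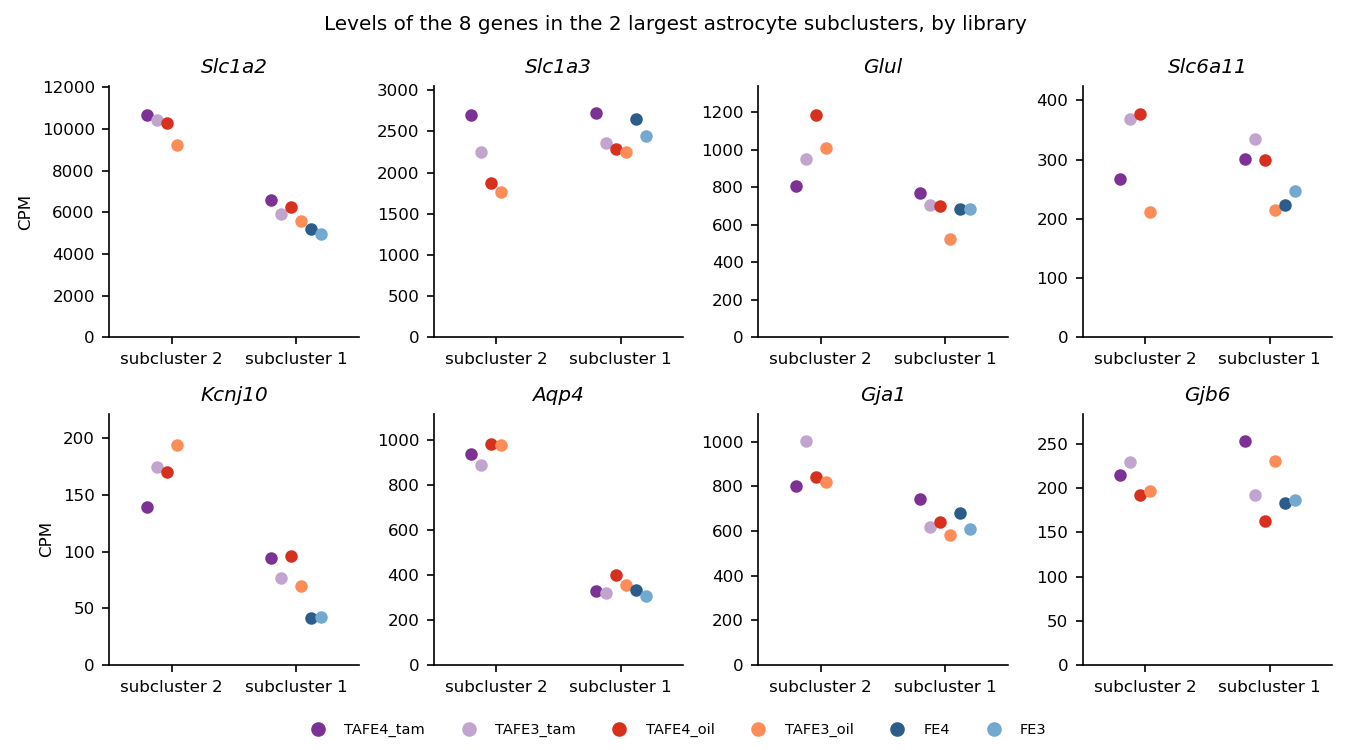
Level of the 8 genes in CPM, on linear axes from 0, in astrocyte subclusters 2 and 1; each point is 1 library with at least 50 nuclei in that subcluster, so FE4 and FE3 appear in subcluster 1 only. Slc1a2, Aqp4 and Kcnj10 lie higher in subcluster 2 than in subcluster 1 in every tau library, and Slc1a3 does not.

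Tau ratios were smaller within subcluster 1 than over all astrocytes for the genes called above. Of the 7 genes with 100 UMIs there, 0 were called in TAFE4_oil against FE4, where 19.5% of genes were called higher and 9.66% lower, and 0 in TAFE3_oil against FE3, where 5.26% were called higher and 11.4% lower. Aqp4 had 399 CPM in TAFE4_oil against 332 CPM in FE4, a log2 ratio of 0.27 (-0.07 to 0.59), and 356 CPM in TAFE3_oil against 306 CPM in FE3, a ratio of 0.22 (-0.13 to 0.56). Slc1a2 had 0.27 (0.19 to 0.35) in TAFE4_oil against FE4 and 0.17 (0.08 to 0.25) in TAFE3_oil against FE3. Kcnj10, under 100 UMIs in this subcluster, had 95.7 CPM in TAFE4_oil against 41.7 CPM in FE4, a ratio of 1.20 (0.43 to 1.93), and 69.3 CPM in TAFE3_oil against 42.0 CPM in FE3, a ratio of 0.72 (-0.16 to 1.58). The Aqp4 intervals hold 0, and the Kcnj10 interval excludes it in TAFE4_oil against FE4 only. Slc6a11 had 0.42 (0.03 to 0.80) in TAFE4_oil against FE4 and -0.21 (-0.64 to 0.21) in TAFE3_oil against FE3, so its signs differed between alleles here too, with an interval that held 0 in the second.

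In subcluster 2 the FE libraries had few nuclei, 47 in FE4 and 46 in FE3, and were read with a minimum of 40 nuclei set after the data were seen. Kcnj10 had 0.32 (-0.44 to 1.12) in TAFE4_oil against FE4 and 0.75 (-0.22 to 1.88) in TAFE3_oil against FE3. Aqp4 ran the other way in TAFE4_oil against FE4, with 980 CPM against 2132 CPM and a ratio of -1.12 (-1.36 to -0.89), while it had -0.15 (-0.48 to 0.20) in TAFE3_oil against FE3. Slc1a2 had -0.10 (-0.18 to -0.01) in TAFE4_oil against FE4 and 0.27 (0.15 to 0.39) in TAFE3_oil against FE3. The Aqp4 ratio over all astrocytes, 0.56 in TAFE4_oil against FE4, thus had the opposite sign in the subcluster where Aqp4 was highest.

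**Figure D4:**
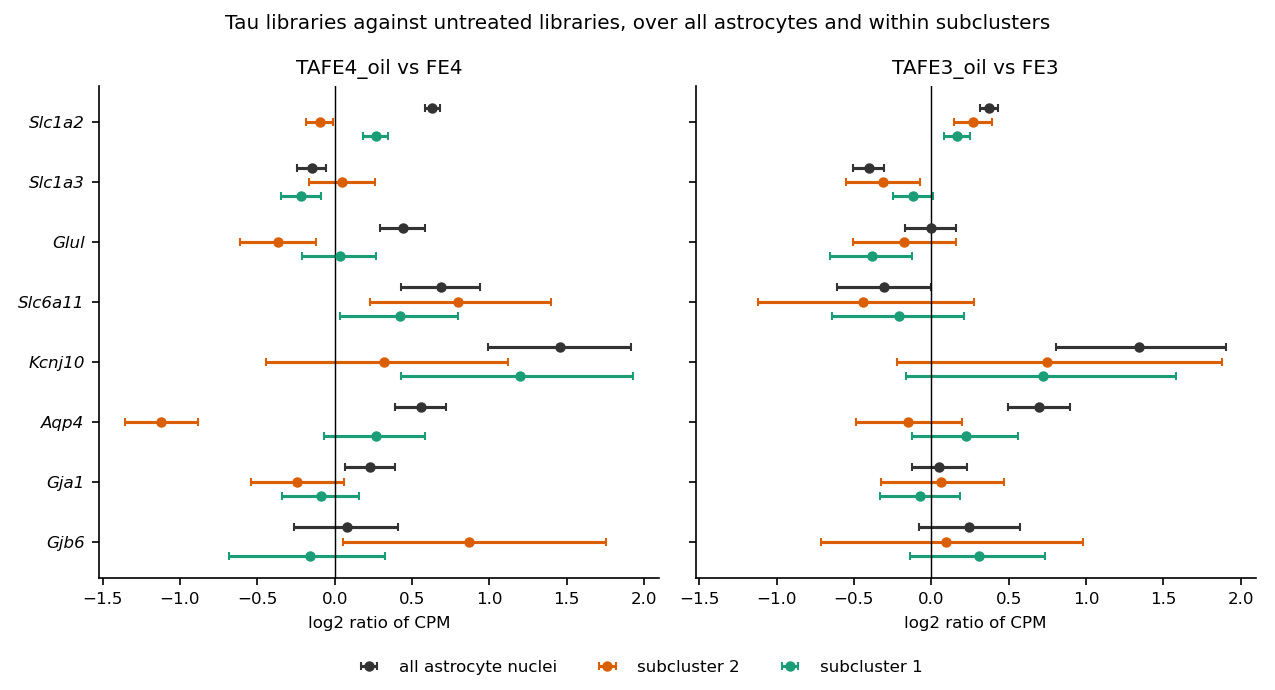
Log2 ratio of CPM between tau libraries given oil and untreated libraries, over all astrocyte nuclei, in subcluster 2 (at least 40 nuclei) and in subcluster 1; points are ratios and bars 95% counting intervals. Aqp4 in TAFE4_oil against FE4 is 0.56 over all astrocytes, -1.12 in subcluster 2 and 0.27 in subcluster 1.

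Tamoxifen was set against oil in tau mice of the same allele, the comparison in which astrocyte APOE is lower. In TAFE4_tam against TAFE4_oil, 1 of the 8 genes was called higher and 0 lower, where 4.35% of 1746 genes were called higher and 12.8% lower. In TAFE3_tam against TAFE3_oil, 1 was called higher and 0 lower, where 5.43% of 2394 genes were called higher and 3.68% lower. The called genes differed. Gjb6 was higher in TAFE4_tam, with 227 CPM against 158 CPM in TAFE4_oil and a log2 ratio of 0.52 (0.12 to 0.93), while it had -0.01 (-0.34 to 0.33) in TAFE3_tam against TAFE3_oil. Slc6a11 was higher in TAFE3_tam, with 325 CPM against 199 CPM in TAFE3_oil and a ratio of 0.71 (0.41 to 1.01), while it had -0.17 (-0.50 to 0.16) in TAFE4_tam against TAFE4_oil. The Gjb6 call ended with small changes of scale, at 0.48 among nuclei of at least 1000 UMIs, and the Slc6a11 call ended at 0.33 with no mitochondrial limit. Slc1a3 had a positive ratio short of the fold in both, 0.46 (0.34 to 0.58) in TAFE4_tam against TAFE4_oil and 0.27 (0.17 to 0.38) in TAFE3_tam against TAFE3_oil. Kcnj10 had -0.06 (-0.60 to 0.46) in TAFE4_tam against TAFE4_oil and -0.03 (-0.48 to 0.41) in TAFE3_tam against TAFE3_oil, and intervals of that width allow changes past the fold in TAFE4. Aqp4 had -0.29 (-0.52 to -0.07) in TAFE4_tam against TAFE4_oil and -0.16 (-0.35 to 0.03) in TAFE3_tam against TAFE3_oil.

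Within subcluster 1, 1 of 7 genes was called higher and 0 lower in both tamoxifen comparisons. The backgrounds were 5.64% called higher and 13.2% lower in TAFE4_tam against TAFE4_oil, and 8.01% called higher and 1.57% lower in TAFE3_tam against TAFE3_oil. The called genes were Gjb6 in TAFE4_tam against TAFE4_oil, at 0.64 (0.04 to 1.25), and Slc6a11 in TAFE3_tam against TAFE3_oil, at 0.65 (0.18 to 1.12). Both were also called over all astrocytes, which include these nuclei, so the calls are not separate. Gjb6 had 59 UMIs in TAFE4_tam and 41 in TAFE4_oil within subcluster 1, at the minimum for a call.

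Astrocytes of the tamoxifen libraries could not be split by loss of APOE. After thinning to 1000 UMIs, 79.0% of astrocytes had an APOE UMI in TAFE4_tam and 79.6% in TAFE3_tam, but so did 59.2% of granule neurons in TAFE4_tam and 55.5% in TAFE3_tam. Without thinning these shares were 90.3% and 89.97% of astrocytes and 87.0% and 86.0% of granule neurons in TAFE4_tam and TAFE3_tam. Median depth was 1661 and 1662 UMIs in those astrocytes and 2234 and 2350 UMIs in those granule neurons. An APOE UMI in a nucleus thus does not show that the nucleus kept the allele, and the 8 genes are given for all astrocytes of a library.

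APOE4 was set against APOE3 in 3 settings that share libraries with the comparisons above. In FE4 against FE3, 0 of the 8 genes were called, where 6.48% of 4660 genes were called higher and 9.38% lower. In TAFE4_tam against TAFE3_tam, 0 were called, where 4.45% of 1799 genes were called higher and 8.39% lower. In TAFE4_oil against TAFE3_oil, 1 was called higher, Slc6a11, where 5.05% of 2338 genes were called higher and 1.45% lower. Slc6a11 had 300.2 CPM in TAFE4_oil against 199 CPM in TAFE3_oil, a log2 ratio of 0.59 (0.28 to 0.91), but -0.40 (-0.64 to -0.15) in FE4 against FE3 and -0.28 (-0.61 to 0.04) in TAFE4_tam against TAFE3_tam. The low TAFE3_oil value enters this comparison, the tau comparison and the tamoxifen comparison of Slc6a11 alike, and with no mitochondrial limit the ratio in TAFE4_oil against TAFE3_oil was 0.04. Glul had -0.14 (-0.28 to -0.01) in FE4 against FE3, 0.30 (0.13 to 0.47) in TAFE4_oil against TAFE3_oil and -0.11 (-0.31 to 0.09) in TAFE4_tam against TAFE3_tam. Kcnj10 stayed between -0.15 and -0.04 in the 3 settings, with intervals that all held 0 and reached from -0.70 to 0.45. Medians of the 8 were -0.15 in FE4 against FE3, 0.09 in TAFE4_oil against TAFE3_oil and -0.06 in TAFE4_tam against TAFE3_tam, beside -0.07, 0.09 and -0.04 over all genes tested. For tamoxifen the medians were 0.00 in TAFE4_tam against TAFE4_oil and 0.17 in TAFE3_tam against TAFE3_oil, beside -0.05 and 0.06.

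Companion genes of the same pathways were counted from 6 lists of 56 genes. In TAFE4_oil against FE4, 33 reached 100 UMIs, of which 15 were called higher and 2 lower, where 25.8% of all genes tested were called higher and 11.0% lower. In TAFE3_oil against FE3, 24 reached 100 UMIs, of which 5 were called higher and 3 lower, where 13.7% of all genes tested were called higher and 11.2% lower. The counts in TAFE3_oil against FE3 lay near those shares. By list, the glutamate and glutamine genes had 5 called higher and 1 lower of 8 in TAFE4_oil against FE4, and 1 higher and 0 lower of 5 in TAFE3_oil against FE3. The potassium, ion and water genes had 4 higher and 1 lower of 13 in TAFE4_oil against FE4, and 3 higher and 3 lower of 12 in TAFE3_oil against FE3. The glucose and lactate genes had 3 higher of 4 in TAFE4_oil against FE4, and 1 higher of 3 in TAFE3_oil against FE3. Endfoot anchoring genes had 1 higher of 4 in TAFE4_oil against FE4 and 0 of 3 in TAFE3_oil against FE3, GABA and glycine genes 1 of 3 and 0 of 1, and other gap junction genes 1 of 1 and none tested.

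Companions called the same way in both tau comparisons were named. Fxyd1, a regulator of the sodium pump, had 305 CPM in TAFE4_oil against 146 CPM in FE4, a log2 ratio of 1.06 (0.79 to 1.33), and 382 CPM in TAFE3_oil against 153 CPM in FE3, a ratio of 1.32 (1.03 to 1.63). Atp1b2, a sodium pump subunit of glia, had ratios of 0.55 (0.39 to 0.71) in TAFE4_oil against FE4 and 0.53 (0.35 to 0.72) in TAFE3_oil against FE3. Mlc1, an endfoot membrane protein, was higher by 0.99 (0.77 to 1.22) in TAFE4_oil against FE4 and by 0.57 (0.31 to 0.83) in TAFE3_oil against FE3. Ldhb, a lactate dehydrogenase subunit, was higher by 1.32 (1.09 to 1.54) in TAFE4_oil against FE4 and by 0.87 (0.61 to 1.14) in TAFE3_oil against FE3. Clcn2, a chloride channel, was lower, at -0.56 (-1.05 to -0.09) in TAFE4_oil against FE4 and -0.64 (-1.16 to -0.13) in TAFE3_oil against FE3. They are single genes of their lists. No companion was read under other processing, such as TMM factors, or within subclusters. The potassium, ion and water list did not move one way. It summed to 6654 CPM in TAFE4_oil against 6114 CPM in FE4, and to 6303 CPM in TAFE3_oil against 7033 CPM in FE3. The glucose and lactate list, which holds Ldhb, was higher in both tau comparisons. It summed to 841 CPM in TAFE4_oil against 388 CPM in FE4, and to 714 CPM in TAFE3_oil against 475 CPM in FE3. Ldhb alone had 453 CPM in TAFE4_oil against 182 CPM in FE4, and 399 CPM in TAFE3_oil against 218 CPM in FE3. The list sum is therefore not separate from Ldhb. In the tamoxifen comparisons, Hepacam, an adhesion protein that binds Mlc1, was called higher in both, at 0.64 (0.25 to 1.02) in TAFE4_tam against TAFE4_oil and 0.64 (0.30 to 0.99) in TAFE3_tam against TAFE3_oil. Of all companions with 100 UMIs, 3 were called higher and 2 lower of 21 in TAFE4_tam against TAFE4_oil, where 4.35% of all genes were called higher and 12.8% lower. In TAFE3_tam against TAFE3_oil 2 were called higher and 0 lower of 23, where the shares were 5.43% and 3.68%. Between alleles, 0 were called higher and 4 lower of 33 in FE4 against FE3, where the shares were 6.48% and 9.38%. In TAFE4_oil against TAFE3_oil 2 were called higher and 1 lower of 22, where they were 5.05% and 1.45%, and in TAFE4_tam against TAFE3_tam 1 was called higher and 2 lower of 23, where they were 4.45% and 8.39%.

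Among the 14 named classes all 8 genes had their highest pooled level in astrocytes, as the plot of levels by class shows. That does not hold for Gjb6 once the 7 unnamed clusters, 5635 nuclei in all, are counted. An unnamed cluster of 1123 nuclei led by Acta2, Tagln, Slc6a13 and Ptgds had 338 CPM of Gjb6, between 282 and 398 CPM over the 6 libraries, against 177 CPM in astrocytes. The other 7 genes were lower in every unnamed cluster than in astrocytes; in that cluster Slc1a3 had 638 CPM, Glul 589 CPM, Gja1 281 CPM and Aqp4 267 CPM, beside 2126 CPM of astrocyte markers. Slc1a2 had 6119 CPM in astrocytes, with 1693 CPM in endothelial cells, 741 CPM in choroid plexus cells and 155 to 793 CPM in neuron clusters. Slc1a3 had 2102 CPM in astrocytes, 249 CPM in oligodendrocyte precursors and 242 CPM in microglia, and its 76.7 CPM in granule neurons stood above 23.2 to 28.2 CPM in other neuron classes. Glul had 715 CPM in astrocytes, 559 CPM in endothelial cells and 242 CPM in oligodendrocytes, both of which are known to make glutamine synthetase. Slc6a11 had 235 CPM in astrocytes and at most 60.3 CPM elsewhere. Aqp4 had 528 CPM in astrocytes and 169 CPM in endothelial cells. Gja1 had 637 CPM in astrocytes and 221 CPM in leptomeningeal cells, and Gjb6 had 166 CPM in leptomeningeal cells, a class in which 1 library reached 50 nuclei. Connexins also join the cells of the leptomeninges. Astrocyte markers summed to 1182 to 3669 CPM in endothelial cells and 1276 to 2253 CPM in choroid plexus cells by library, and their part in the levels of the 8 genes there was not tested. Slc1a2 in endothelial cells ranged with library from 836 CPM in TAFE4_tam to 3464 CPM in TAFE3_tam.

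**Figure D5:**
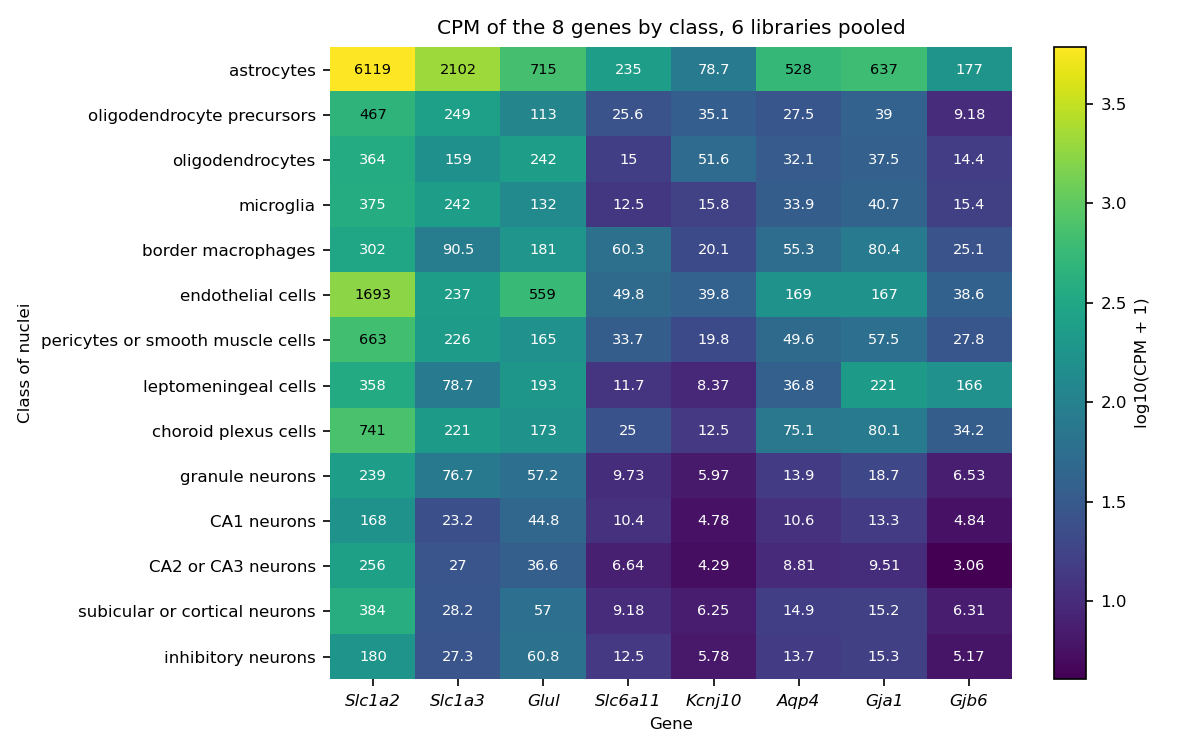
Level of the 8 genes in the 14 named classes of nuclei, pooled over the 6 libraries; colour is log10(CPM + 1) and the number in each cell is CPM. The 7 unnamed clusters are not drawn, among them the one where Gjb6 had 338 CPM. Among the classes drawn astrocytes are highest for every gene, and Kcnj10 comes next in oligodendrocytes, with 51.6 CPM beside 78.7 CPM in astrocytes.

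Kcnj10 was also found in the oligodendrocyte lineage. It had 51.6 CPM in oligodendrocytes and 35.1 CPM in their precursors, cells in which this channel is also known to clear potassium, against 78.7 CPM in astrocytes. In oligodendrocytes it had 57.7 CPM in TAFE4_tam, 58.1 CPM in TAFE3_tam, 54.3 CPM in TAFE4_oil, 68.6 CPM in TAFE3_oil, 35.8 CPM in FE4 and 36.9 CPM in FE3. As in astrocytes, each tau library lay above both FE libraries. Kcnj10 was called higher in oligodendrocytes of TAFE4_oil against FE4, at 0.60 (0.05 to 1.15), where 22.5% of genes were called higher and 6.68% lower. In TAFE3_oil against FE3 the ratio was 0.89 (0.17 to 1.67), from under 100 UMIs. Free RNA moved as well: in granule neurons Kcnj10 had 11.3 CPM in TAFE4_oil against 2.66 CPM in FE4, and 5.28 CPM in TAFE3_oil against 7.30 CPM in FE3. Its part in the astrocyte and oligodendrocyte ratios was not tested, and the astrocyte levels were 117 CPM in TAFE4_oil, 121 CPM in TAFE3_oil, 42.8 CPM in FE4 and 47.5 CPM in FE3.

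Across 70 pools of 1 class in 1 library, the genes whose log2(CPM + 1) ran most like each of the 8 were ranked among 1428 genes. Slc1a2 ran most like Ntsr2, an astrocyte receptor gene (Pearson r = 0.93), Slc1a3 and Gja1 like Ppap2b (r = 0.95 and 0.96), and Glul like the metallothionein gene Mt1 (r = 0.95). The next for Slc1a2 were Pla2g7 and Mt2, for Slc1a3 Gpr37l1 and Pla2g7, for Gja1 Id4 and S1pr1, and for Glul Aldoc and Gstm5. Aqp4 ran most like Clu (r = 0.92), then Mt1 and Mlc1, Gjb6 like Id4 (r = 0.92), then Clu and Ppap2b, and Slc6a11 like Acsbg1 (r = 0.88), then Paqr8 and Pla2g7. Kcnj10 had the lowest best match, Scd2, a lipid desaturase gene abundant in oligodendrocytes (r = 0.82), then Csrp1 and Cmtm5. Among the 8 themselves r was highest between Gja1 and Gjb6, at 0.94, and lowest between Slc6a11 and Kcnj10, at 0.60. Pools of 1 library share depth and free RNA, and pools of 1 class share cells, so these values describe the pools only.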

How the data were processed

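Nuclei of 6 libraries, 1 per group, were counted with 10x chemistry. The deposited matrices hold raw, unnormalized counts of UMIs, and their headers name Cell Ranger 3.1.0 as the authors' counter; the submitters' processing notes name mm10 and Seurat, and filters before deposit are not given in the sources used here.

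Nuclei with at least 500 UMIs, 300 genes and at most 5% mitochondrial UMIs were kept. Doublets were scored with Scrublet in scanpy 1.11.5 and at least the expected share, 0.8% per 1000 nuclei, was left out. The own threshold of a library marked 1 nucleus in TAFE3_oil, 3.74% in FE4 and 5.39% in TAFE4_oil. After results had been seen, the expected share replaced it in those libraries. It was kept in FE3, TAFE3_tam and TAFE4_tam, where it marked 14.4%, 9.44% and 14.5%. TAFE3_oil against FE3, FE4 against FE3 and both tamoxifen comparisons thus set libraries under different doublet rules against each other. Clustering used 2000 variable genes without the 8 genes, 30 components, 15 neighbours and Leiden (leidenalg 0.10.2, python-igraph 0.11.9) at resolution 1; astrocytes were clustered again at resolution 0.5. Classes were named from marker lists.

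Counts were summed per class and library with at least 50 nuclei. CPM have exact Poisson intervals and ratios exact conditional binomial (Clopper-Pearson) intervals, both at 95% and for counting error only; counts under 3 were set to 3. A call needed a log2 ratio of 0.5 in size and 100 UMIs over both libraries. With 1 library per group there was no test. The ratio and call steps alone were run on simulated Poisson counts drawn from the astrocyte sums. Clustering, doublet removal, thinning and differences between libraries were not simulated. Python 3.11.15, numpy 2.4.6, scipy 1.17.1, pandas 2.3.3, scikit-learn 1.9.0, matplotlib 3.10.9 and, for TMM factors, edgeR 4.0.16 in R 4.3.3 were used. All 8 genes were described. Companions were named when called the same way in both comparisons of a pair, up to 6 per pair, and likeness named the 3 genes with the highest correlation. The 8 genes and all lists were chosen with earlier results of these data known. Barcodes shared by libraries were counted and kept.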

Additional observations from a re-analysis of the deposited data

Results flagged for a closer look

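Some pairs of comparisons gave log2 ratios on opposite sides of 0 with counting intervals that held 0 in neither. Each rests on 1 library per group and the difference between the ratios was not tested. Slc6a11, the GABA transporter gene, had 0.69 in TAFE4_oil against FE4 and -0.30 in TAFE3_oil against FE3. It also had 0.59 between TAFE4_oil and TAFE3_oil and -0.40 in FE4 against FE3. Slc1a2 had 0.16 between TAFE4_oil and TAFE3_oil and -0.10 in FE4 against FE3, and Glul had 0.30 and -0.14 in the same comparisons, all 4 short of the fold. These comparisons share the libraries TAFE4_oil, TAFE3_oil, FE4 and FE3, so the pairs of ratios of a gene are not independent. Subcluster 3, whose nuclei held 16930 CPM of neuronal transcripts, gave 133 of 938 astrocytes in FE4 and 16 to 21 in TAFE4_oil, TAFE3_oil and FE3. Within subcluster 1 alone, Slc1a2 had 5199 CPM in FE4 against 4979 CPM in FE3, a log2 ratio of 0.06. Glul there had 682 CPM against 685 CPM, a ratio of -0.01, and Slc6a11 had 223 CPM against 248 CPM, a ratio of -0.15. That subset also leaves out subcluster 2, so the part of subcluster 3 by itself was not tested.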

How the results depend on the processing

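With 1 library per group, neither a replicate nor an animal could be left out, and depth limits Kcnj10 most, at 42 to 94 astrocyte UMIs per library. No paired analysis was possible because each group had 1 library. Of 728 ratios of the 8 genes under other settings, 618 moved by less than their counting error and 110 by more. The median ratio of the 8 in TAFE4_oil against FE4, 0.50, was 0.24 with TMM factors, 0.30 with median-of-ratios factors, 0.36 as a mean of CPM over nuclei and 0.15 in the largest astrocyte subcluster. In TAFE3_oil against FE3, 0.15, it was 0.36 with doublets kept. In TAFE4_oil against TAFE3_oil, 0.09, it was -0.030 with doublets kept, and in TAFE4_tam against TAFE3_tam, -0.06, it was 0.18 in the largest subcluster. With each library's own doublet threshold, the rule first used, medians were 0.76 in TAFE4_oil against FE4, -0.10 in TAFE3_oil against FE3, 0.39 in TAFE3_tam against TAFE3_oil, 0.25 in TAFE4_oil against TAFE3_oil, and for FE4 against FE3 -0.44. Under that rule 5 genes were past the fold higher in TAFE4_oil against FE4, 1 higher and 2 lower in TAFE3_oil against FE3 and 2 lower in FE4 against FE3. Slc1a2 in choroid plexus cells, TAFE3_tam against TAFE3_oil, had a ratio of -0.00472 with no mitochondrial limit and 0.75 with it. The cause of these moves was not tested. A limit of 1% mitochondrial UMIs gave no comparison, since too few libraries kept 50 astrocytes, and the largest astrocyte cluster was the whole class. The own doublet threshold, the largest subcluster, the limit on neuronal transcripts and the minimum of 40 nuclei were chosen after seeing the data.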

Other observations

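Slc1a2 was not at one level in neurons. In 2 clusters of subicular or cortical neurons, with 3544 and 1202 nuclei, it had 671 and 793 CPM, against 155 to 372 CPM in the other named neuron clusters. Astrocyte markers summed to 417 and 364 CPM in those 2 clusters and to 270 to 397 CPM in the others. In the cluster of 1202 nuclei the level was 717 to 888 CPM over 6 libraries.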
